A study of Drosophila melanogaster with 16 samples.

Results

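The comparison set heads of male Drosophila melanogaster carrying the short-repeat transgene (5R) on chromosome 3, Chrom3-5R, against heads of males carrying 5R on chromosome 2, Chrom2-5R. Its members are the 8 libraries with these titles, 4 in each group, of 16 in the series. The other 8 libraries carry the long-repeat transgene (160R) on chromosome 3 (Chrom3-160R, 4 libraries) or chromosome 2 (Chrom2-160R, 4 libraries), and they were used here to see which line differences recurred. All flies were 5 to 8 days past eclosion and were kept at 25 °C, and the labels say that each transgene was expressed. The labels name no driver, no cross, no collection batch and no genetic background, and each group is labelled by the chromosome of its insertion alone. Whether the 4 libraries of a group came from separate crosses is not stated, so the p-values weigh only the variation among these libraries, and part or all of it may be technical.

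The series models FTD and ALS caused by C9ORF72 (frontotemporal dementia, amyotrophic lateral sclerosis), where an intronic GGGGCC repeat is expanded. Short repeats serve as the control in such models, because they are not expected to form RNA foci or to be translated into dipeptide repeat proteins in large amounts. Transgenes placed at different sites can differ in expression through the surrounding chromatin, a position effect, and lines made separately also differ in the rest of their genome. The fly's chromosome 4 and the regions next to the centromeres are rich in heterochromatin, and the Y chromosome is almost wholly heterochromatic, so genes there are read beside the rest. The fly head holds the brain, the compound eyes, the antennae and other sense organs, muscle, fat body and blood cells.

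Gene levels are read counts over whole gene spans, given as CPM, counts scaled to library size with TMM factors. Library totals were 42854987 to 53615117 counts in Chrom3-5R and 11452337 to 23498476 in Chrom2-5R, so the groups did not overlap in depth. Insertion line and depth therefore cannot be told apart from the full counts, and the main counts over all genes and the 5R counts of each gene list are also given after thinning all libraries at random to 11452337 counts. The first principal component of the 8 libraries (log2 CPM) held 42.9% of their variance, with Chrom3-5R at 21 to 24.3 and Chrom2-5R at -36.3 to -9.48. Chrom2-5R replicate 4, at -9.48, lay nearest to Chrom3-5R. Reads over an overlapping gene on either strand enter both genes, so such a gene is uncertain and is named with its partner and the ratio of the partner's counts to its own. Gene spans over 20 kb took 30.16% to 31.83% of counts in Chrom3-5R and 28.14% to 29.56% in Chrom2-5R.

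Of 13525 genes tested, 4103 (30.3%) were called at an edgeR adjusted p below 0.05, 2086 higher (15.4%) and 2017 lower (14.9%) in Chrom3-5R. With upper-quartile scaling the split was 2408 higher and 1490 lower. Each gene list below is to be read beside the 30.3%, 15.4% and 14.9% over all genes tested. Most changes were small. A change of at least 2-fold was called for 304 genes (2.25%), 214 higher and 90 lower, or for 241 after thinning, and 115 genes (0.85%) passed a test against a change of 1.5-fold. After thinning, 3116 of 11999 genes (26.0%) passed, with 1544 higher and 1572 lower. Among the 4103 calls 2961 recurred in the same direction. The 4 libraries of one group did not overlap the 4 of the other in 4132 genes (30.6%). Among the 304 genes past 2-fold, 53 were small nucleolar or Cajal body RNA genes, all higher in Chrom3-5R, and 152 overlapped another gene. Of all 13525 genes tested, 213 were such RNA genes and 6066 overlapped no other gene. Overlapping genes were therefore not more frequent among the 304 than among all genes.

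Among genes that averaged at least 5 CPM in the higher group and whose groups did not overlap, the largest rise was in CG11313 (3R:30729837-30731165), which stood at 23.0, 28.8, 16.5 and 24.4 CPM in Chrom3-5R and at 0.188, 0.203, 0.0537 and 0.566 CPM in Chrom2-5R. All 4 Chrom3-5R libraries lay far above the Chrom2-5R libraries, where the gene was close to absent. The log2 change was 6.37 ± 0.31 (SE; edgeR adjusted p = 1.3e-08), and 7.31 without Chrom2-5R replicate 4. CG14238 (3R:26458249-26460981) had 8.87, 10.5, 10.8 and 9.61 CPM in Chrom3-5R against 0.754, 1.42, 0.967 and 0.87 CPM in Chrom2-5R, a log2 change of 3.27 ± 0.21 (edgeR adjusted p = 2.4e-08). CG11052 (3R:8008249-8009297) had 8.42, 8.16, 7.61 and 7.32 CPM in Chrom3-5R and 1.79, 1.37, 1.77 and 1.13 CPM in Chrom2-5R, a log2 change of 2.41 ± 0.13 (edgeR adjusted p = 3.9e-09). In both genes the replicates of each group were tight and the groups were well apart. CG42876 (2L:15810571-15812141) stood at 19.3, 23.4, 23.8 and 21.1 CPM in Chrom3-5R and at 4.05, 4.77, 4.46 and 3.79 CPM in Chrom2-5R, a log2 change of 2.36 ± 0.15 (edgeR adjusted p = 2.2e-08).

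Other large rises were in genes of detoxification and of blood cells. Ugt37b1 (2L:6225048-6226842), a UDP-glucuronosyltransferase, which couples sugar acids to small molecules, had 4.71, 8.69, 8.29 and 5.12 CPM in Chrom3-5R against 1.41, 1.52, 1.45 and 1.22 CPM in Chrom2-5R, a log2 change of 2.26 ± 0.25 (edgeR adjusted p = 8.2e-06). Cyp9c1 (2R:24631063-24632923), a cytochrome P450, stood at 37.4, 30.6, 38.7 and 32.9 CPM in Chrom3-5R and at 11.3, 9.64, 10 and 8.53 CPM in Chrom2-5R, a log2 change of 1.84 ± 0.09 (edgeR adjusted p = 1e-09). Cyp9c1 cannot be told apart from the antisense RNA gene CR43787 on the same span (log2 change 1.83 ± 0.09), and CG13594, which overlaps both, has 5.41 and 5.38 times their counts. PPO1 (2R:17887220-17889973), the prophenoloxidase of crystal cells, which darken wounds with melanin, had 64.5, 77.0, 54.4 and 86.6 CPM in Chrom3-5R against 18.4, 22.6, 22.2 and 25.2 CPM in Chrom2-5R. Its log2 change was 1.67 ± 0.38 (edgeR adjusted p = 0.0054), and its partner Elk has 3.32 times its counts. The groups did not overlap in these genes, which was a condition for being picked. The remaining rises among the 12 largest were CG8870 (2.02 ± 0.12, with a partner, mRpS21, at 1.86 times its counts), CG42367 (1.73 ± 0.2), CG42711 (1.68 ± 0.17, with a partner, Ance-3, at 29.1 times its counts) and CG34165 (1.65 ± 0.12), at edgeR adjusted p values of 1e-08, 1.7e-05, 3.6e-06 and 1.4e-07. By arm, 5 of the 12 lay on 2L, 3 on 2R and 4 on 3R.

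**Figure D1:**
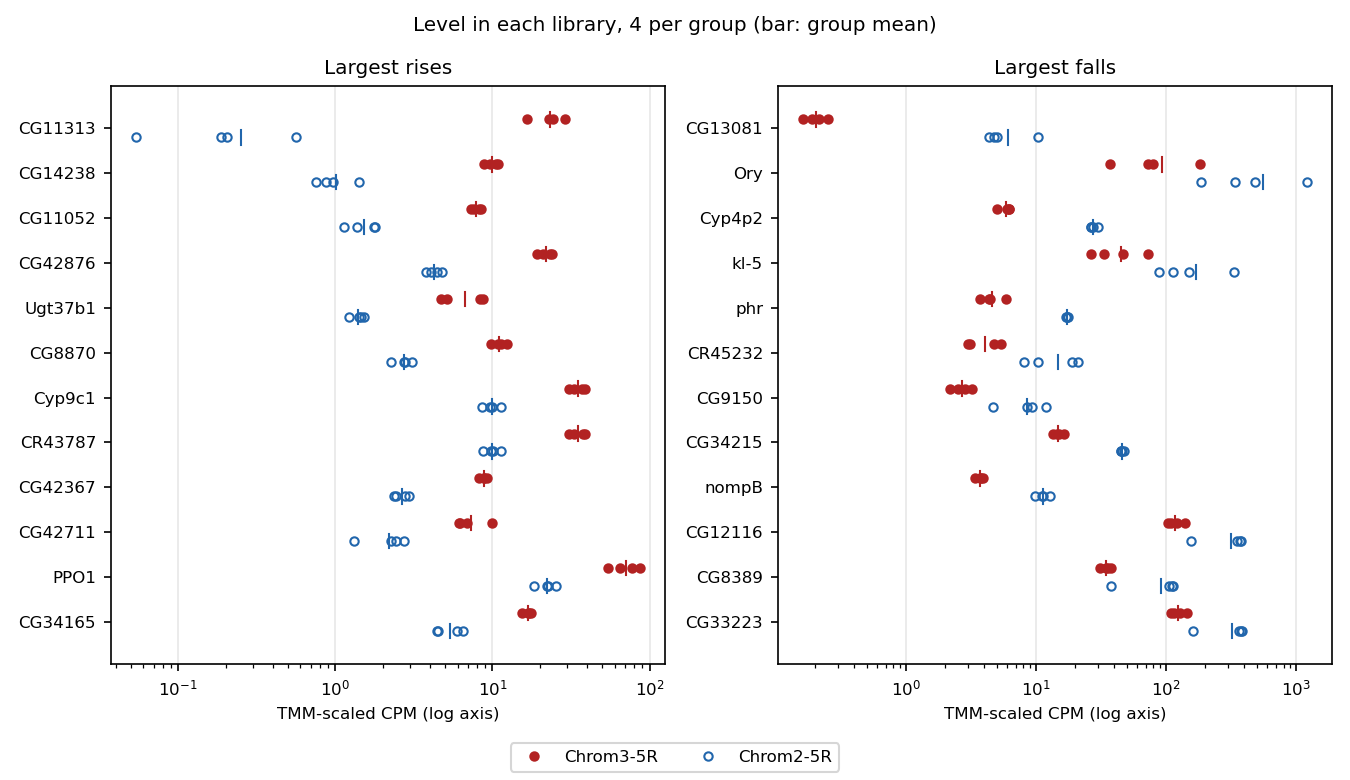
TMM-scaled CPM (log axis) of the 12 largest rises and 12 largest falls, 1 point per library, with Chrom3-5R (filled) above Chrom2-5R (open) for each gene and a bar at each group mean. CG11313 stood at 16.5 to 28.8 CPM in Chrom3-5R and 0.0537 to 0.566 CPM in Chrom2-5R, and Ory spread from 186 to 1207 CPM within Chrom2-5R.

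Under the same conditions, the largest fall was in CG13081 (2L:19540607-19541540), at 0.162, 0.192, 0.251 and 0.216 CPM in Chrom3-5R and 4.99, 4.36, 10.3 and 4.74 CPM in Chrom2-5R. The gene was low in all 4 Chrom3-5R libraries, and Chrom2-5R replicate 3 was the highest. The log2 change was -4.88 ± 0.33 (edgeR adjusted p = 5.7e-08). The next gene, 927 bases away, is ref(2)P (2L:19542468-19545548), the p62 adaptor of autophagy, which had 202, 198, 210 and 213 CPM in Chrom3-5R against 263, 247, 270 and 240 CPM in Chrom2-5R. Its log2 change was -0.31 ± 0.04 (edgeR adjusted p = 3.1e-05), and its overlapping partner CG10337 has 0.0208 times its counts.

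Cyp4p2 (2R:9237512-9239831), a cytochrome P450, stood at 6.22, 5.07, 6.19 and 5.97 CPM in Chrom3-5R and at 27.4, 26.3, 26.4 and 29.8 CPM in Chrom2-5R, a log2 change of -2.23 ± 0.1 (edgeR adjusted p = 4.9e-10). It lies inside hig, which has 39.1 times its counts. phr (2R:7825289-7827319), a photolyase that repairs ultraviolet damage to DNA, had 4.4, 4.41, 5.89 and 3.73 CPM in Chrom3-5R and 17.0, 17.5, 17.3 and 17.8 CPM in Chrom2-5R, a log2 change of -1.92 ± 0.12 (edgeR adjusted p = 1e-08; the partner Prosalpha1 has 0.00968 times its counts). nompB (2L:21578292-21589423), an intraflagellar transport protein needed for the cilia of sensory neurons, had 3.8, 3.9, 3.38 and 3.75 CPM in Chrom3-5R and 9.89, 12.8, 11.1 and 11.3 CPM in Chrom2-5R, a log2 change of -1.61 ± 0.1 (edgeR adjusted p = 1e-08). All 3 genes were tight within each group, and non-overlap of the groups was a condition for being picked. CG34215 (-1.62 ± 0.13, with a partner, CG15236, at 6.43 times its counts), CG9150 (-1.66 ± 0.22) and the noncoding gene CR45232 (-1.84 ± 0.34) were also called, at edgeR adjusted p values of 5.6e-07, 6.4e-05 and 0.0013.

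In the 3 remaining falls outside the Y chromosome, 1 library of Chrom2-5R lay near Chrom3-5R. CG12116 (X:8467443-8469012) had 139, 104, 109 and 121 CPM in Chrom3-5R against 354, 376, 369 and 155 CPM in Chrom2-5R, where replicate 4 was the low library. Its log2 change was -1.4 ± 0.24 (edgeR adjusted p = 0.00087), and it shares its span with CG33223 (-1.37 ± 0.24), which has 1.04 times its counts. CG8389 (2R:16008339-16013815) had 34.3, 30.9, 35.9 and 37.6 CPM in Chrom3-5R against 106, 113, 111 and 37.7 CPM in Chrom2-5R, again with replicate 4 low. Its log2 change was -1.4 ± 0.25 (edgeR adjusted p = 0.0012; the partner Prosbeta1 has 0.836 times its counts).

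The rises of highest level were smaller than those above, while the falls of highest level reached -1.19 in log2, in ninaE. Among the 5 called rises of highest level were unc-13, which primes synaptic vesicles for release, at 2157, 1982, 2026 and 2094 CPM in Chrom3-5R and 1654, 1503, 1624 and 1862 CPM in Chrom2-5R, a log2 change of 0.31 ± 0.06 (edgeR adjusted p = 0.0014; the partner CR44029 has 0.127 times its counts). Hsromega, the heat-inducible noncoding RNA of the nuclear omega speckles, had 1815, 1738, 1730 and 1717 CPM in Chrom3-5R and 1355, 1141, 1136 and 1528 CPM in Chrom2-5R, a log2 change of 0.44 ± 0.09 (edgeR adjusted p = 0.001; the partner mir-4951 has 0.0255 times its counts). In both genes the lowest Chrom3-5R library stood above the highest Chrom2-5R library. CG17684, in the centromere-side part of 2R, rose by 0.58 ± 0.08, mtd by 0.2 ± 0.05 and rdgA, the diacylglycerol kinase of photoreceptors, by 0.28 ± 0.05 in log2 (edgeR adjusted p = 7e-05, 0.0038 and 0.00034). The partner CG31538 has 0.0172 times the counts of mtd, and CR43836 has 0.728 times those of rdgA. The falls of highest level were ninaE, IA-2, Arr2, Pex7 and CG3523. IA-2, a phosphatase-like protein of dense-core vesicles, had 3368, 3124, 3443 and 3209 CPM in Chrom3-5R and 4358, 4358, 4232 and 3897 CPM in Chrom2-5R, a log2 change of -0.36 ± 0.05 (edgeR adjusted p = 3.4e-05; the partner CG4415 has 0.00152 times its counts).

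Photoreceptor genes were lower in Chrom3-5R. Of 33 tested, 19 fell and 2 rose, with a median log2 change of -0.29 against 0.00 over all genes tested, and thinning gave the same counts. ninaE (3R:19886255-19888206), the main rhodopsin of the outer photoreceptors, had 3654, 3476, 3969 and 3452 CPM in Chrom3-5R against 11539, 7671, 7793 and 6122 CPM in Chrom2-5R. The groups did not overlap, and Chrom2-5R replicate 1 was the highest. The log2 change was -1.19 ± 0.15 (edgeR adjusted p = 3.7e-05). Of 6 rhodopsins 5 fell and none rose, among them Rh4, an ultraviolet opsin of the inner photoreceptors (-0.59 ± 0.07), and Rh6, their green opsin (-0.53 ± 0.07), at edgeR adjusted p values of 7.3e-06 and 2.7e-05. The partner sina has 0.103 times the counts of Rh4.

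Downstream of the rhodopsins, trp, the light-activated cation channel, stood at 2214, 2203, 2194 and 2182 CPM in Chrom3-5R and at 3442, 3249, 3200 and 2931 CPM in Chrom2-5R, a log2 change of -0.54 ± 0.06 (edgeR adjusted p = 7.2e-06). Gbeta76C, the G-protein beta subunit of the eye, fell by 0.46 on the log2 scale (SE 0.06; edgeR adjusted p = 3.2e-05). Arr2, the arrestin that shuts off rhodopsin, had 2679, 2509, 2841 and 2595 CPM in Chrom3-5R and 6014, 4162, 4458 and 4137 CPM in Chrom2-5R, but Pex7, a peroxisomal import receptor on the same span, has 0.991 times its counts, and the 2 cannot be told apart (log2 change -0.82 ± 0.11 and -0.81 ± 0.11; edgeR adjusted p = 5e-05 and 4.2e-05). The 2 rises were rdgA and ninaD, the scavenger receptor for carotenoids, which had 11.4, 18.2, 10.6 and 12.7 CPM in Chrom3-5R against 5.75, 6.65, 6.07 and 9.57 CPM in Chrom2-5R (log2 change 0.89 ± 0.22; edgeR adjusted p = 0.0076). Summed over the list, the level was 29644 to 30571 CPM in Chrom3-5R and 39233 to 49521 CPM in Chrom2-5R. In whole heads, fewer photoreceptors and less of these RNAs per photoreceptor cannot be told apart, and the same holds for every cell type below.

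Cytosolic ribosomal protein genes fell almost throughout. Of 84 tested, 80 fell and none rose, with a median log2 change of -0.53, and after thinning the counts were 80 and 0 of 83. Their summed level was 21274, 22543, 23534 and 21497 CPM in Chrom3-5R and 36160, 31931, 31678 and 27630 CPM in Chrom2-5R, with no overlap. RpS24 had 174, 194, 198 and 181 CPM in Chrom3-5R against 330, 297, 304 and 258 CPM in Chrom2-5R, a log2 change of -0.67 ± 0.06 (edgeR adjusted p = 1.2e-06). RpL13 changed by -0.68 ± 0.07, RpLP0, of the ribosomal stalk, by -0.59 ± 0.06 and RpS20 by -0.73 ± 0.08 in log2 (edgeR adjusted p = 2.1e-06, 2.3e-06 and 3.9e-06; CG17272, the partner of RpS20, has 0.125 times its counts). In a fit without genes that overlap another, 35 of 38 fell (28.4% of all genes were called in that fit). Mitochondrial ribosomal protein genes were called less often than all genes tested, at 20.5% against 30.3%. Of 73, 9 were higher and 6 lower, with a median of -0.03 (6 and 5 after thinning). The higher count was 5 without Chrom2-5R replicate 1 or 2 or Chrom3-5R replicate 2 or 4, and the lower count was 10 without Chrom3-5R replicate 2. With all 16 libraries, full or thinned, proteasome subunits had 0 of 31 called by edgeR, and limma-voom and DESeq2 called 0 too, with 0 at an unadjusted edgeR p below 0.05 in the full counts and a median of -0.03. With the length trend removed 1 was called, higher. With the 8 5R libraries fitted alone, edgeR called 1 higher and 4 lower, and with those libraries thinned it called 0 higher and 4 lower.

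Small nucleolar and Cajal body RNAs, which guide the chemical modification of ribosomal and spliceosomal RNA, went the other way. Of 213 tested, 104 rose and 1 fell, with a median log2 change of 0.67, and after thinning 70 rose and 2 fell of 145. The 1 fall was not called without Chrom2-5R replicate 1 or 3 or Chrom3-5R replicate 1 or 4, and the falls were 2 without Chrom2-5R replicate 2. snoRNA:lola-c (2R:10536950-10537120) had 8.34, 8.22, 10.6 and 9.63 CPM in Chrom3-5R and 3.02, 3.71, 3.06 and 3.0 CPM in Chrom2-5R, a log2 change of 1.52 ± 0.1 (edgeR adjusted p = 3.1e-08). The neighbouring snoRNA:lola-b rose by 1.41 ± 0.1 and snoRNA:Psi18S-1389b by 1.09 ± 0.12 in log2 (edgeR adjusted p = 7.6e-08 and 6.4e-06). The hosts lola (178 and 333 times their counts) and dom (45.5 times) overlap them, and of the 213 tested 203 overlap another gene. In a fit without overlapping genes, 6 of 10 rose. With a trend of level on gene length removed in each library, 68 rose and 7 fell. The summed level of the class overlapped between the groups, at 739 to 1048 CPM in Chrom3-5R and 677 to 943 CPM in Chrom2-5R. The 3 windows of 10 neighbouring genes with the most calls past 2-fold were all snoRNA clusters, with 9 at 2L:20418348-20419908, 6 at 2R:21329698-21334299 and 5 at X:17144107-17146215.

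Gene length went with the direction of change. Of 400 genes with spans up to 200 bases, 120 rose and 8 fell, with a median of 0.42. The small nucleolar RNAs named above belong to this class, so it shares members with that list. Of 3898 genes from 2000 to 5000 bases, 500 rose and 735 fell. Of 91 genes over 100000 bases, 48 rose and 3 fell, with a median of 0.15. After thinning the counts were 76 and 8 for the shortest class and 47 and 3 for the longest. Its part in the gene groups was not tested, except through the counts with the length trend removed. That fit called 17.1% of all genes higher and 12.1% lower. In it 77 of 105 chromosome 4 genes rose and 2 fell. Of 84 cytosolic ribosomal protein genes 0 rose and 81 fell, and of 33 photoreceptor genes 3 rose and 19 fell. Small nucleolar RNAs moved more, as given above, and of 73 mitochondrial ribosomal protein genes 6 rose and 13 fell.

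**Figure D2:**
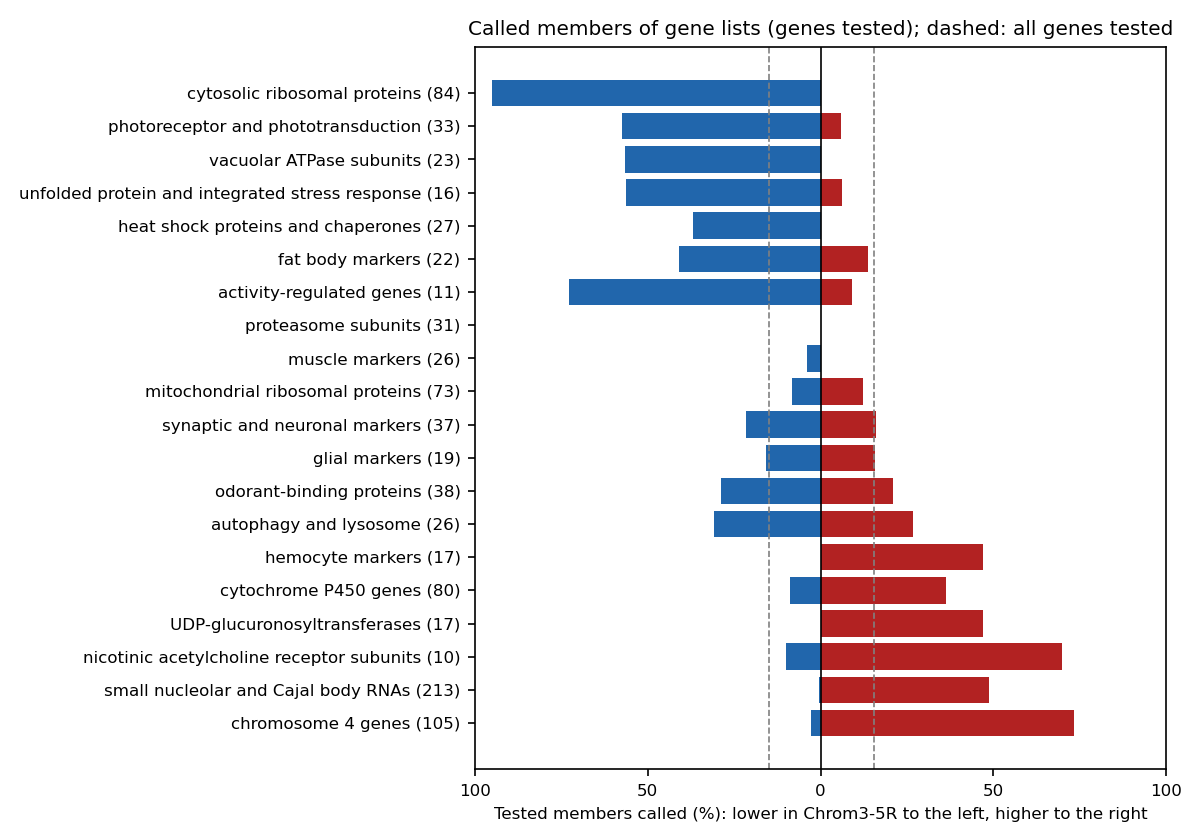
Share of tested members of each gene list called higher (right) or lower (left) in Chrom3-5R against Chrom2-5R, with the number tested in brackets and the share over all genes tested as dashed lines (15.4% higher, 14.9% lower). Of the ribosomal protein genes 95.2% were called lower, and of the chromosome 4 genes 73.3% were called higher.

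Other housekeeping and stress groups were also lower. Vacuolar ATPase subunits, which acidify lysosomes and synaptic vesicles, fell in 13 of 23 and rose in none (median -0.21; 13 and 0 of 17 after thinning). Vha55, of the catalytic head, changed by -0.4 ± 0.05 and the accessory subunit VhaAC45 by -0.39 ± 0.04 in log2 (edgeR adjusted p = 1.6e-05 and 3.6e-06). Heat shock proteins and chaperones fell in 10 of 27 and rose in none (median -0.18; 7 and 0 of 22 after thinning). Hsc70-4, the most abundant cytosolic chaperone of the Hsp70 family, had 1439, 1415, 1497 and 1380 CPM in Chrom3-5R and 2363, 2060, 2156 and 1687 CPM in Chrom2-5R, a log2 change of -0.53 ± 0.08 (edgeR adjusted p = 7e-05).

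The unfolded protein and integrated stress response had 9 of 16 genes lower and 1 higher (median -0.19; 8 and 1 after thinning). Xbp1, the transcription factor activated by splicing on endoplasmic reticulum stress, had 300, 315, 316 and 301 CPM in Chrom3-5R and 416, 384, 384 and 345 CPM in Chrom2-5R, a log2 change of -0.31 ± 0.05 (edgeR adjusted p = 0.00025). trbl, the fly tribbles, changed by -0.44 ± 0.08 (edgeR adjusted p = 0.0005). The 1 that rose was Atf6, a membrane-bound transcription factor of the same response, with 178, 163, 170 and 174 CPM in Chrom3-5R and 125, 116, 125 and 121 CPM in Chrom2-5R (log2 change 0.49 ± 0.06; edgeR adjusted p = 7.3e-06). Autophagy and lysosome genes went both ways, with 7 higher and 8 lower of 26 (5 and 8 after thinning). Mitf, the TFEB factor that switches on lysosomal genes, rose by 0.45 ± 0.04, and Atg18a, which binds phosphoinositides on forming autophagosomes, changed by -0.42 ± 0.04 in log2 (edgeR adjusted p = 1.9e-06 and 2.7e-06). Cell death and DNA damage genes had 1 of 24 called, lower, also after thinning.

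Among fat body markers 9 of 22 fell (40.9%) and 3 rose (13.6%), with a median of -0.2 (9 and 3 of 21 after thinning). The rises, near the 15.4% over all genes, are not printed here. The falls included genes of fatty acid synthesis. CG3523, the fatty acid synthase FASN1, had 2233, 2487, 2312 and 2240 CPM in Chrom3-5R against 5669, 5139, 4999 and 2794 CPM in Chrom2-5R, a log2 change of -1.0 ± 0.15 (edgeR adjusted p = 0.00024). Desat1, the acyl-CoA desaturase, had 1103, 1369, 1187 and 1221 CPM in Chrom3-5R against 2648, 2382, 2323 and 1627 CPM in Chrom2-5R, a log2 change of -0.88 ± 0.11 (edgeR adjusted p = 4.8e-05). Chrom2-5R replicate 4 was the lowest of its group in both genes, and still above every Chrom3-5R library. HLH106, the fly SREBP, which drives lipid synthesis genes, changed by -0.38 ± 0.06 in log2 (edgeR adjusted p = 0.00014; the partner CG14102 has 0.047 times its counts).

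Among detoxification genes, cytochrome P450 genes and UDP-glucuronosyltransferases leaned upward, while glutathione S-transferases lay near the share over all genes. Of 80 cytochrome P450 genes 29 rose and 7 fell (median 0.15; 25 and 5 of 78 after thinning). Cyp28a5 (2L:13977302-13979569) had 103, 125, 108 and 116 CPM in Chrom3-5R and 54.5, 55.9, 59.1 and 57.0 CPM in Chrom2-5R, a log2 change of 0.99 ± 0.08 (edgeR adjusted p = 1.4e-07). Cyp316a1, at a low level, rose by 2.62 ± 0.22 and Cyp6a23 by 0.66 ± 0.06, while Cyp4d20 changed by -1.01 ± 0.11 in log2 (edgeR adjusted p = 4.6e-07, 1.5e-06 and 7.8e-06; CG45186, the partner of Cyp4d20, has 23.5 times its counts). UDP-glucuronosyltransferases rose in 8 of 17 and fell in none (median 0.29; 4 of 11 after thinning). Without 1 library their count was 4 (Chrom2-5R replicate 1 or Chrom3-5R replicate 4) or 5 (Chrom2-5R replicate 3 or Chrom3-5R replicate 2). Ugt58Fa had 11.5, 13.5, 13.2 and 12.3 CPM in Chrom3-5R and 4.62, 3.81, 5.0 and 5.26 CPM in Chrom2-5R (log2 change 1.43 ± 0.11; edgeR adjusted p = 1.2e-07). Glutathione S-transferases had 6 higher and 5 lower of 33 (5 and 4 of 29 after thinning), and the higher count was 3 without Chrom2-5R replicate 1 or 2.

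Hemocyte markers, the genes of circulating and sessile blood cells, rose in 8 of 17 and fell in none (median 0.26; 7 of 17 after thinning). Their count was 5 without Chrom2-5R replicate 1 or 2 or Chrom3-5R replicate 2. Hml, the clotting protein hemolectin, had 450, 479, 456 and 485 CPM in Chrom3-5R and 291, 313, 369 and 375 CPM in Chrom2-5R, a log2 change of 0.47 ± 0.08 (edgeR adjusted p = 0.00026). NimC2, a Nimrod receptor of phagocytes, rose by 0.76 ± 0.14 in log2 (edgeR adjusted p = 0.0007), and its partner rk has 3.05 times its counts. NimC2 lies 556 bases from Cyp28a5. Antimicrobial peptide, Toll and Imd genes had 2 higher and 6 lower of 46 (0 and 4 after thinning, and 4 and 5 with the 8 5R libraries fitted alone). Without 1 library, the higher count was 0 or 1 for 7 of the 8 libraries, all but Chrom2-5R replicate 4, and the lower count was 2 or 3 without Chrom2-5R replicate 1 or 2 or Chrom3-5R replicate 1 or 4.

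The sum over synaptic and neuronal markers overlapped between the groups, at 21486 to 22386 CPM in Chrom3-5R and 20874 to 22256 CPM in Chrom2-5R. Of 37 tested, 6 rose and 8 fell (7 and 7 after thinning, and 5 fell without Chrom2-5R replicate 1 or Chrom3-5R replicate 1), near the share over all genes. Snap25 (3L:24074180-24299205), a SNARE of synaptic vesicle fusion in the centromere-side part of 3L, had 1276, 1144, 1261 and 1246 CPM in Chrom3-5R and 935, 892, 907 and 973 CPM in Chrom2-5R (log2 change 0.41 ± 0.05; edgeR adjusted p = 1.6e-05; the partner CR45159 has 0.000763 times its counts). Its fusion partner nSyb, by contrast, changed by -0.38 ± 0.05 in log2 (edgeR adjusted p = 1.5e-05). The presynaptic calcium channel gene cac rose by 0.3 ± 0.06, and Ddc, which makes dopamine and serotonin, changed by -0.45 ± 0.04 (edgeR adjusted p = 0.0012 and 1.2e-06; CG10561, the partner of Ddc, has 0.211 times its counts). Rbp9, a neuronal RNA-binding protein of the Elav family, had 844, 808, 839 and 825 CPM in Chrom3-5R and 1337, 1172, 1284 and 1224 CPM in Chrom2-5R (log2 change -0.6 ± 0.04; edgeR adjusted p = 9.4e-08; the partner Ts has 0.00561 times its counts).

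Nicotinic acetylcholine receptor subunits, which form the main excitatory receptor of the fly brain, rose in 7 of 10 and fell in 1 (median 0.23; 5 and 0 after thinning). Without Chrom2-5R replicate 2 the rises were 4, and the 1 fall was not called without any 1 of the other 7 libraries than Chrom3-5R replicate 2. nAChRalpha3 had 245, 230, 230 and 232 CPM in Chrom3-5R and 166, 182, 164 and 182 CPM in Chrom2-5R (log2 change 0.43 ± 0.05; edgeR adjusted p = 1.8e-05; the partner CG1636 has 0.205 times its counts). nAChRalpha4 rose by 0.44 ± 0.06 in log2 (edgeR adjusted p = 6.4e-05). Their summed level was 2490 to 2731 CPM in Chrom3-5R and 2038 to 2302 CPM in Chrom2-5R.

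Activity-regulated genes, induced by neuronal firing, fell in 8 of 11 and rose in 1 (median -0.34; 7 and 1 after thinning, and 5 and 1 with the 8 5R libraries fitted alone or thinned). Their falls were 4 without Chrom2-5R replicate 1 or 2, and 5 without Chrom2-5R replicate 3 or Chrom3-5R replicate 2. The summed level was 1403, 1382, 1390 and 1377 CPM in Chrom3-5R and 1891, 1883, 1909 and 1345 CPM in Chrom2-5R, so that Chrom2-5R replicate 4 lay below every Chrom3-5R library. Arc1, a capsid-like protein of synapses, had 218, 238, 243 and 225 CPM in Chrom3-5R and 357, 320, 354 and 258 CPM in Chrom2-5R (log2 change -0.48 ± 0.09; edgeR adjusted p = 0.001). Jra, the fly Jun, changed by -0.34 ± 0.05 and CG13868 rose by 0.37 ± 0.04 in log2 (edgeR adjusted p = 9.7e-05 and 8.4e-06; their partners RpLP0-like and CR44642 have 0.256 and 0.00478 times their counts). Muscle markers had 1 of 26 called, lower (median -0.17; 2 of 24 after thinning and 2 without Chrom2-5R replicate 4). With the 8 5R libraries fitted alone 8 of 25 were lower, and 8 of 24 with those libraries thinned. Their summed level was 6738 to 8021 CPM in Chrom3-5R and 7650 to 8868 CPM in Chrom2-5R. Glial markers had 3 higher and 3 lower of 19 (4 and 2 of 18 after thinning), with 5 higher without Chrom2-5R replicate 4.

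Neuropeptide and hormone genes rose in 5 of 39 and fell in 7 (6 and 5 of 36 after thinning). Dh31, a diuretic and wake-promoting peptide, rose by 0.37 ± 0.04, and Ilp3, an insulin-like peptide of the brain, by 0.65 ± 0.08 in log2 (edgeR adjusted p = 1.5e-05 and 2e-05). Bace and CG32052, which overlap them, have 0.00923 and 8.55 times their counts. Nplp1 had 113, 113, 112 and 113 CPM in Chrom3-5R and 141, 146, 139 and 132 CPM in Chrom2-5R, a log2 change of -0.31 ± 0.03 (edgeR adjusted p = 5.7e-06), and Nplp2 changed by -0.54 ± 0.08 (edgeR adjusted p = 8.7e-05). Clock genes had 2 higher and 3 lower of 14, also after thinning. The kinase subunit CkIIalpha, which phosphorylates the clock proteins, rose by 0.38 ± 0.04, and per, the clock's transcriptional repressor, changed by -0.34 ± 0.06 in log2 (edgeR adjusted p = 8.4e-06 and 0.00041; CG2650, the partner of per, has 0.0115 times its counts). The blue-light receptor cry changed by -0.4 ± 0.07 (edgeR adjusted p = 0.00054), and its partner vib has 0.92 times its counts.

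Genes of smell and taste moved in both directions. Of 38 odorant-binding protein genes 8 rose and 11 fell (3 and 10 of 30 after thinning). Obp57a and Obp57b, taste-organ genes 13 bases apart, stood at 25.7, 27.0, 25.6 and 26.5 CPM and at 39.5, 42.5, 38.0 and 40.1 CPM in Chrom3-5R, against 11.9, 13.2, 13.4 and 14.1 CPM and 23.8, 23.7, 23.0 and 25.7 CPM in Chrom2-5R. Their log2 changes were 0.99 ± 0.08 and 0.73 ± 0.06 (edgeR adjusted p = 2.6e-07 and 4.6e-07). Obp56g changed by -0.73 ± 0.07 and Obp56d by -0.48 ± 0.05 (edgeR adjusted p = 1.5e-06 and 8.2e-06). Of 103 odorant, gustatory and ionotropic receptor genes, 14 rose and 9 fell (9 and 4 of 63 after thinning), and the falls were 4 without Chrom2-5R replicate 1 and 5 without Chrom3-5R replicate 1 or 2. The odorant receptor genes Or65c and Or82a rose by 2.15 ± 0.18 and 1.63 ± 0.22 (edgeR adjusted p = 3.6e-07 and 6.3e-05), at levels below 10 CPM in every library. TwdlV, a cuticle gene 1138 bases from Or82a, had 2.2, 1.47, 2.67 and 1.98 CPM in Chrom3-5R and 0.188, 0.305, 0.322 and 0.261 CPM in Chrom2-5R (log2 change 2.89 ± 0.38; edgeR adjusted p = 2.9e-05). In all, cuticle genes rose in 8 of 70 and fell in 6 (5 and 5 of 48 after thinning), with Cpr67B at -0.51 ± 0.07 (edgeR adjusted p = 5.5e-05).

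Chromosome 4 stood apart from the other chromosomes in its counts. Of its 105 genes tested 77 rose (73.3%) and 3 fell, with a median log2 change of 0.30, and after thinning 72 rose and 1 fell of 102. The falls were 0 without Chrom2-5R replicate 3 or Chrom3-5R replicate 2 and 1 without Chrom3-5R replicate 4. Pur-alpha (4:558016-567257), an RNA-binding protein studied as a modifier of GGGGCC repeat toxicity in flies, had 368, 385, 334 and 339 CPM in Chrom3-5R against 209, 253, 240 and 266 CPM in Chrom2-5R, a log2 change of 0.56 ± 0.08 (edgeR adjusted p = 5.7e-05). yellow-h (4:227922-230428) rose by 0.85 ± 0.15 in log2 (edgeR adjusted p = 0.001; the partner CR46065 has 0.211 times its counts). Mitf and unc-13, described above, also lie on chromosome 4. The summed level of the chromosome was 32179 to 33267 CPM in Chrom3-5R and 27720 to 30276 CPM in Chrom2-5R. The counts on the major arms ran from 10.6% higher and 18.0% lower on X to 18.2% higher and 12.5% lower on 2L, and the arms of chromosomes 2 and 3 had medians of -0.01 to 0.03.

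**Figure D3:**
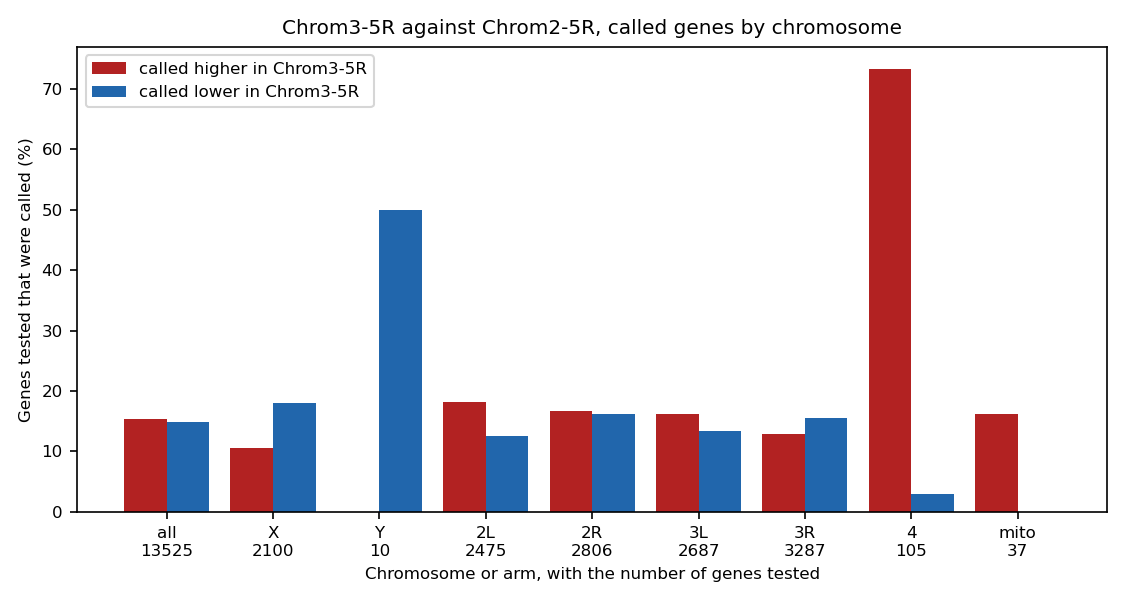
Share of the genes tested on each chromosome or arm that was called higher (left bar) or lower (right bar) in Chrom3-5R against Chrom2-5R, with the number tested under each name. Chromosome 4 had 73.3% higher and 2.86% lower, against 15.4% and 14.9% over all genes.

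The genes nearest the centromeres of chromosomes 2 and 3 also leaned upward, with medians of 0.18 to 0.58 in the bins of 2 Mb there. The X bin of 54 genes did so less, with 12 higher, 4 lower and a median of 0.02. In these bins, X included, 155 genes tested lay on the centromere side, a set defined after the values by position were seen. Of the 155 genes 73 rose and 9 fell, with a median of 0.23 (69 and 5 of 141 after thinning). Their summed level was 19839 to 21224 CPM in Chrom3-5R and 16362 to 17461 CPM in Chrom2-5R. lt (2L:22924795-22943135), a gene of lysosomal transport that lies in heterochromatin, had 142, 130, 138 and 143 CPM in Chrom3-5R and 90.3, 93.5, 95.1 and 108 CPM in Chrom2-5R, a log2 change of 0.51 ± 0.05 (edgeR adjusted p = 4e-06). The Y chromosome went the other way. Of 8 listed Y genes, needed for male fertility, 5 fell and none rose, also after thinning, and 3 fell without Chrom2-5R replicate 2 or with the 8 5R libraries fitted alone.

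kl-5 (Y:22250-137486), a dynein heavy chain of the sperm tail, had 72.6, 46.7, 26.3 and 33.5 CPM in Chrom3-5R and 113, 333, 88.3 and 150 CPM in Chrom2-5R, a log2 change of -1.94 ± 0.46 (edgeR adjusted p = 0.0069). Ory had 182, 72.1, 37.4 and 80.1 CPM in Chrom3-5R and 341, 1207, 186 and 483 CPM in Chrom2-5R, a log2 change of -2.58 ± 0.69 (edgeR adjusted p = 0.014). Without Chrom2-5R replicate 2 the Ory change was -1.85 and was not called (edgeR adjusted p = 0.051), nor was it with the 5R libraries thinned (edgeR adjusted p = 0.052), in a range of 0.0011 to 0.052 over the alternatives. PRY changed by -0.91 ± 0.21 (edgeR adjusted p = 0.0038). Replicates of both groups spread widely in these genes, and replicate 2 was the highest of Chrom2-5R, at a summed level of 3548 CPM against 535 to 1263 CPM in the other 3 libraries of that group and 134 to 561 CPM in Chrom3-5R.

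**Figure D4:**
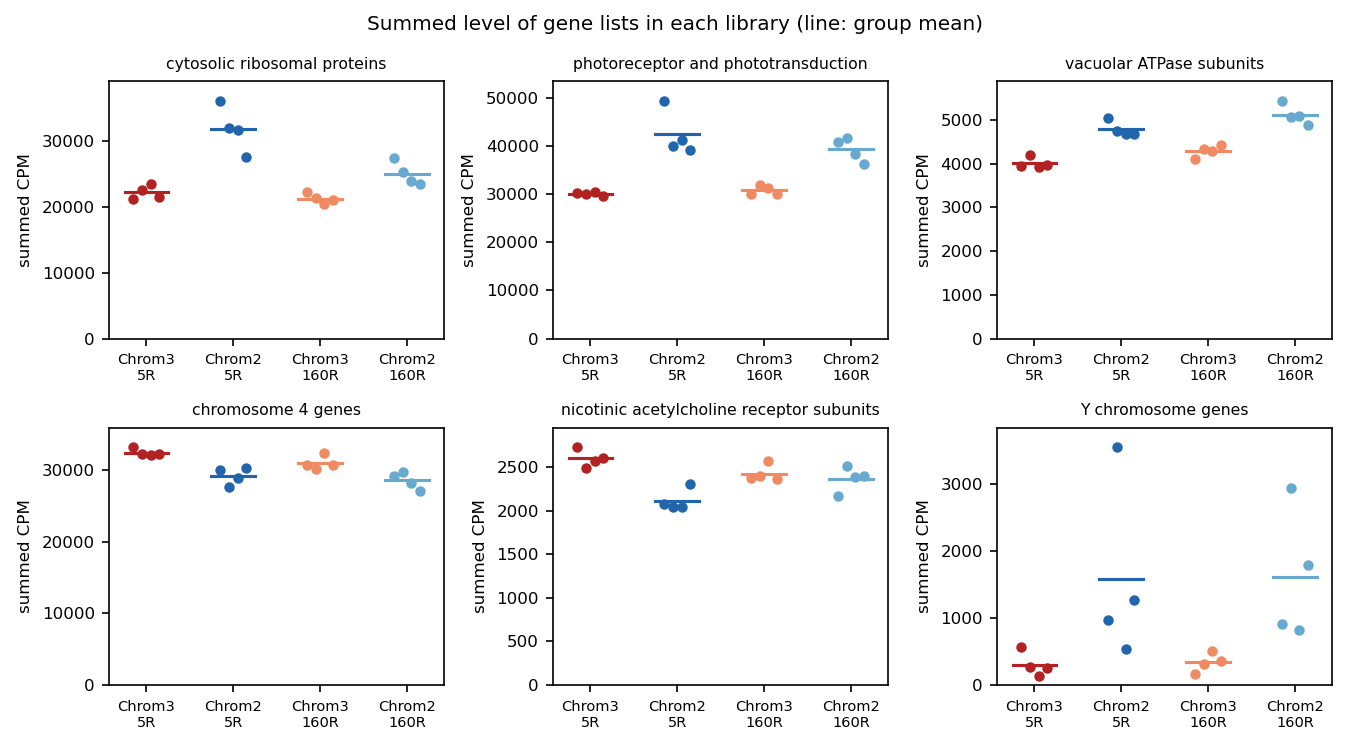
Summed TMM-scaled CPM of 6 gene lists in each library, with a line at the group mean, for the 5R groups and the 160R groups. Ribosomal protein genes summed to 21274 to 23534 CPM in Chrom3-5R and 27630 to 36160 CPM in Chrom2-5R, and Y genes spread from 535 to 3548 CPM within Chrom2-5R.

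Among other noncoding and mitochondrial RNAs, snRNA:7SK, which holds back the transcription factor P-TEFb, had 523, 579, 656 and 543 CPM in Chrom3-5R and 1585, 1101, 1062 and 929 CPM in Chrom2-5R, a log2 change of -1.02 ± 0.16 (edgeR adjusted p = 0.00031). The small nuclear RNAs as a class had 3 higher and 2 lower of 17 (0 and 2 of 11 after thinning, and 1 and 2 of 15 with the 8 5R libraries fitted alone). The higher count was 5 without Chrom3-5R replicate 1 and 1 without Chrom3-5R replicate 2. Their median log2 change was 0.14. Their summed level, which includes snRNA:7SK, was 618 to 845 CPM in Chrom3-5R and 1134 to 1939 CPM in Chrom2-5R. Most of it was snRNA:7SK, with means of 575 of 724 CPM in Chrom3-5R and 1169 of 1409 CPM in Chrom2-5R. Mitochondrially encoded genes rose in 6 of 37 and fell in none (5 of 33 after thinning, and 2 of 35 with the 8 5R libraries fitted alone). The count was 2 without Chrom2-5R replicate 1 or 4 or Chrom3-5R replicate 1 or 2, and 10 without Chrom2-5R replicate 2. mt:ND4, a subunit of complex I, had 403, 487, 376 and 312 CPM in Chrom3-5R and 103, 246, 204 and 196 CPM in Chrom2-5R (log2 change 1.07 ± 0.23; edgeR adjusted p = 0.0033; the partner mt:ND4L has 0.0384 times its counts).

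Fly orthologs of genes linked to ALS and FTD rose in 2 of 15 and fell in 5, or in 3 without Chrom2-5R replicate 1 (2 and 3 of 14 after thinning), with Pur-alpha among the rises and ref(2)P among the falls. Small RNA and transposon defence genes rose in 5 of 22 and fell in 2 (3 and 2 of 21 after thinning). r2d2, which loads small interfering RNAs, rose by 0.4 ± 0.07, and AGO2, which slices their targets, changed by -0.3 ± 0.04 in log2 (edgeR adjusted p = 0.00058 and 5.4e-05). The partners cdc14 and CG7739 have 5.05 and 0.567 times their counts. Genes of nuclear pores and transport factors, whose role in C9ORF72 disease has been studied, rose in 3 of 36 and fell in 6 (3 and 5 after thinning), with 5 higher without Chrom2-5R replicate 4.

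The eye and body colour genes used as transgene markers differed little. w, the white transporter, had 71.5, 76.3, 67.1 and 72.7 CPM in Chrom3-5R and 60.4, 65.5, 63.5 and 68.3 CPM in Chrom2-5R. The groups overlapped, and the log2 change of 0.16 ± 0.08 was not called (edgeR adjusted p = 0.17; the partner kirre has 6.62 times its counts). It was called in a fit of the 8 5R libraries alone (edgeR adjusted p = 0.042) and with those libraries thinned (0.026), in a range of 0.026 to 0.33 over the alternatives. bw, which pairs with white in the same transporter, rose by 0.41 ± 0.11 (edgeR adjusted p = 0.0096; the partner mi has 0.58 times its counts). y rose by 0.39 ± 0.12 (edgeR adjusted p = 0.022), but was not called without Chrom2-5R replicate 3 (0.082), Chrom3-5R replicate 1 (0.075) or Chrom3-5R replicate 4 (0.063; range 0.0093 to 0.082 over the alternatives), and CG32816 has 9.16 times its counts. v, ry, cn and st were not called, at log2 changes of 0.05 ± 0.06, -0.1 ± 0.1, 0.32 ± 0.21 and -0.1 ± 0.09 (edgeR adjusted p = 0.54, 0.48, 0.29 and 0.46). The partners CR45108 and CG43373 have 0.996 and 9.75 times the counts of cn and st.

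Whether these line differences recurred was read from the 160R flies, which share no library with the 5R flies. Between Chrom3-160R and Chrom2-160R 3043 genes (22.5%) were called, 11.8% of all genes higher and 10.7% lower, and 2119 after thinning. Both comparisons called 1499 genes in the same direction, which is 36.5% of the 5R calls and 49.3% of the 160R calls, and 107 in opposite directions. Of the 5R calls 81.9% had the same sign in 160R, against 67.5% of all genes tested. The difference between the 5R and the 160R line change was itself called for 983 genes (7.27%), and for 680 after thinning. That count was 632 without Chrom2-5R replicate 1, 584 without replicate 3, 1695 without replicate 4 and 597 without Chrom3-5R replicate 1. The depth gap between the lines is present in both comparisons, so recurrence does not part line from depth.

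By group, ribosomal protein genes were lower in Chrom3-160R in 54 of 84 (median -0.24) and photoreceptor genes in 20 of 33 (median -0.22). The difference between the 5R and the 160R change was called for 23 of the 84 ribosomal protein genes and 2 of the 33 photoreceptor genes. Chromosome 4 genes were higher in Chrom3-160R in 44 of 105 (median 0.14), P450 genes in 36 of 80 and small nucleolar RNAs in 88 of 213. The difference was called for 18, 19 and 14 of them, in that order. Nicotinic receptor subunits, higher in 7 of 10 in Chrom3-5R, had 2 higher and 2 lower in Chrom3-160R (median 0.0), and the difference was called for 4. Fat body markers had 7 higher and 0 lower of 22 in Chrom3-160R, against 3 higher and 9 lower in Chrom3-5R, and the difference between the 2 line changes was called for 6 of them. Synaptic markers had 1 higher and 19 lower of 37 in Chrom3-160R, and the difference was called for 13.

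Of the 12 largest rises, 7 were also called higher in Chrom3-160R and none lower, and 8 differed between 5R and 160R. Of the 12 largest falls, 6 were also called lower, 1 was called higher, and 5 differed. Both sets were picked by their 5R change, which enters that difference, so the counts that differed can be raised by the choice. CG11313 had 53.0 ± 6.05 CPM in Chrom3-160R and 0.118 ± 0.0548 CPM in Chrom2-160R (SD, n = 4 each), a log2 change of 8.73 (edgeR adjusted p = 8.2e-10). Ugt37b1 (3.19), CG42876 (1.6), PPO1 (1.73), kl-5 (-1.53), Cyp4p2 (-1.31) and phr (-1.03) also recurred, at these log2 changes (edgeR adjusted p = 3.1e-06, 5.2e-06, 0.0064, 0.029, 1.2e-07 and 9.4e-06). CG14238 did not recur. It had 1.15 ± 0.405 CPM in Chrom3-160R and 1.25 ± 0.0759 CPM in Chrom2-160R (SD, n = 4 each), so that of the 4 groups Chrom3-5R alone was high. Cyp9c1 followed the same pattern, with 10.4 ± 0.926 CPM in Chrom3-160R and 11.0 ± 0.645 CPM in Chrom2-160R (SD, n = 4 each).

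CG13081 and nompB had the opposite pattern, in which Chrom2-5R alone was high. CG13081 had 0.315 ± 0.061 CPM in Chrom3-160R and 0.458 ± 0.256 CPM in Chrom2-160R, and nompB had 3.54 ± 0.343 and 3.43 ± 0.378 CPM in the same groups (SD, n = 4 each). In CG11052 the 160R groups both stood near the Chrom3-5R level, at 8.38 ± 0.661 CPM in Chrom3-160R and 6.74 ± 0.893 CPM in Chrom2-160R (SD, n = 4 each), so Chrom2-5R was the low group. ninaE had 3380 ± 198 CPM in Chrom3-160R and 4814 ± 574 CPM in Chrom2-160R (SD, n = 4 each), a log2 change of -0.51 (edgeR adjusted p = 0.021), and the difference from its 5R change was not called (edgeR adjusted p = 0.059).

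**Figure D5:**
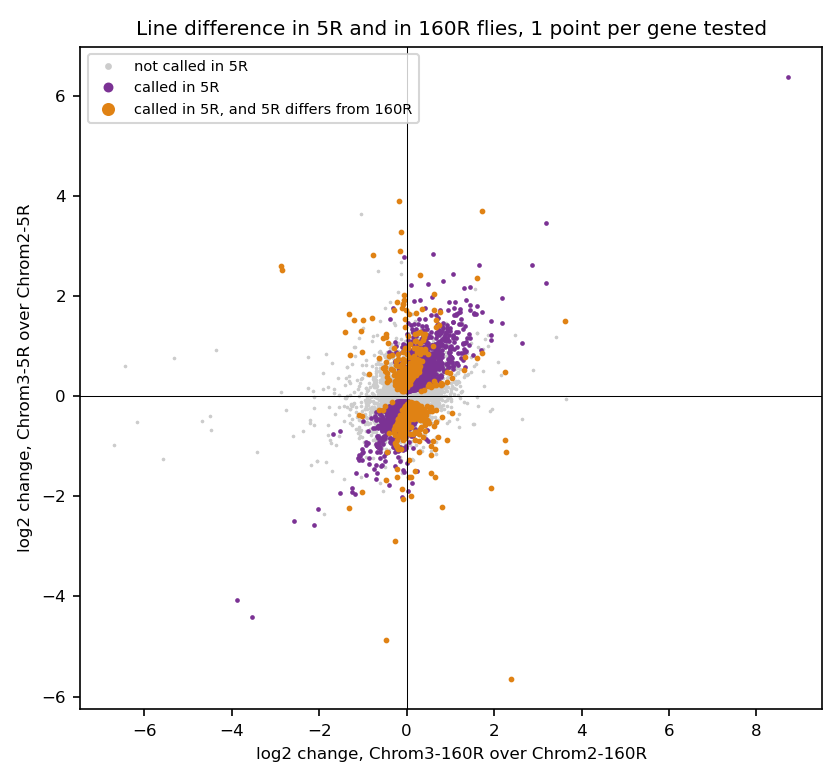
Log2 change of Chrom3-5R over Chrom2-5R (vertical) against that of Chrom3-160R over Chrom2-160R (horizontal), 1 point per gene tested, coloured by whether the gene was called in 5R and whether the difference between the 2 changes was called. CG11313 lies at the upper right (6.37 and 8.73), and CG13081 at the lower centre (-4.88 and -0.48).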

How the data were processed

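RNA from frozen fly heads was made into strand-specific libraries without poly(A) selection, per the labels' protocols. The authors deposited raw read counts per gene over BDGP6 gene spans, introns included. Trimmomatic, STAR, bedtools and DESeq are named in the submitters' processing notes, with their settings not given in the sources used here. From these counts edgeR 4.0.16 (R 4.3.3) was run with TMM factors, its filter on low counts and a robust quasi-likelihood fit of all 16 libraries as 4 groups, with Benjamini-Hochberg adjustment over all genes tested and a threshold of 0.05. Alternatives included limma-voom (limma 3.58.1), DESeq2 1.42.0 and counts thinned to equal totals (seed 7). Library totals set the precision of low genes, and intervals cover only the spread between libraries. Named genes were the 12 largest rises and 12 largest falls (at least 5 CPM in the higher group, groups not overlapping), the 5 called genes of highest level in each direction, up to 4 called members per direction of 46 gene lists by adjusted p, and 7 transgene markers; not every one is printed. The members and lists were chosen with earlier results of these data known. The test against a 1.5-fold change and the centromere-side set were chosen after seeing the data.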

Additional observations from a re-analysis of the deposited data

Results flagged for a closer look

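Among 208 groups of 4 libraries, 12 had a library set apart from the other 3 by more than Dixon's 95% limit, where chance sets apart about 1 in 20 groups. Chrom2-5R replicate 4 was the library in 6 of them: it had 155 CPM of CG12116, 161 of CG33223, 37.7 of CG8389, 189 of cry, 34.7 of bw and 28.3 of st. The others were 10.3 CPM of CG13081 in Chrom2-5R replicate 3, 3.71 of snoRNA:lola-c in Chrom2-5R replicate 2, 304 of VhaAC45 in Chrom2-5R replicate 1, 1478 of CG17684 in Chrom3-5R replicate 2, 245 of nAChRalpha3 in Chrom3-5R replicate 1 and 212 of HLH106 in Chrom3-5R replicate 3.

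For 43 of the 104 genes named in this text the line change in 5R differed from that in 160R at an edgeR adjusted p below 0.05. The share over all genes tested was 7.27%. Most of the 104 genes were chosen by their 5R change, which enters the difference, so the count can be raised by that choice. Each value below is the 5R log2 change minus the 160R log2 change. The difference was above 0 for CG14238 (3.39), CG11052 (2.11), CG42876 (0.75), CG8870 (2.08), Cyp9c1 (1.92), CR43787 (1.91), CG42711 (0.92), CG34165 (1.44) and rdgA (0.28). It was also above 0 for snoRNA:lola-c (0.86), snoRNA:lola-b (0.68), snoRNA:Psi18S-1389b (0.90), nAChRalpha4 (0.31), Snap25 (0.30), cac (0.29), Obp57a (0.39), Or82a (1.57) and TwdlV (3.04). Above 0 too were Ilp3 (0.77), Pur-alpha (0.42), lt (0.27) and w (0.42). The difference was below 0 for CG13081 (-4.39), Cyp4p2 (-0.92), phr (-0.89), CG34215 (-2.28), nompB (-1.66), CG3523 (-0.79), RpS24 (-0.40), RpL13 (-0.38) and RpLP0 (-0.36). It was also below 0 for RpS20 (-0.45), Cyp4d20 (-0.78), Hsc70-4 (-0.40), VhaAC45 (-0.29), trbl (-0.59), Rbp9 (-0.52), Ddc (-0.26), Desat1 (-0.79) and Obp56g (-0.33). Below 0 too were cry (-0.57), ref(2)P (-0.37) and v (-0.44).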

How the results depend on the processing

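Of the 104 genes named in this text, 99 were called. For 101 genes the call, or its absence, and the direction held in all 20 alternatives that tested them, and none reversed. The exceptions were Ory, w and y. Other genes that met the naming rules but are not printed, such as Atx2 and Tl, lost their call in some alternatives. Where overlapping genes were left out, which leaves 6066 genes, 828 were higher and 896 lower in Chrom3-5R, 151 were past 2-fold, 1323 were called in 160R and 479 differed between 5R and 160R. In that fit 44 of 58 chromosome 4 and 11 of 41 P450 genes were higher, against 13.6% of all genes. Lower were 35 of 38 ribosomal protein and 11 of 16 photoreceptor genes, against 14.8%, and 6 of 10 small nucleolar RNAs were higher. In the other direction were 1 chromosome 4, 4 P450 and 1 photoreceptor gene. With at least 5 CPM in 4 libraries, 90 of 9417 genes tested were past 2-fold. Small nucleolar RNAs were higher in 28 of 48 tested there, against 104 of 213 in the main fit. They were higher in 68 of 213 with the length trend removed and in 58 of 126 with the 5R libraries thinned. Leaving out 1 library at a time gave 1678 to 2219 higher, 1557 to 2140 lower and 584 to 1695 differing genes. Deviations of same-numbered 5R libraries correlated at -0.0791 to 0.14, within the -0.235 to 0.223 of differently numbered pairs. No pairing by number was seen, but so few pairs could miss one, and a shared batch was not tested. With the replicate block, 1929 genes were higher, 1788 lower and 297 past 2-fold, and 647 differed between 5R and 160R. Apart from fewer genes tested, the cause of these shifts was not tested. The shallowest library, at 11452337 counts, limits what can be seen of low genes.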
